A study of Mus musculus with 1 sample.

Results

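The hedgehog pathway's ligand Shh, its receptor Ptch1, the co-receptors Gas1, Boc and Cdon, the transducer Smo, the transcription factors Gli1, Gli2 and Gli3 and the ligand trap Hhip were examined in a mouse pancreas fibroblast library. These 10 genes were chosen by symbol, and each had 1 row in a deposited table that came to 23376 genes, 20553 of them protein-coding. The library was made from a fibroblast culture expanded in vitro from normal pancreas and sequenced by SOLiD protocols. The animal had a mixed C57BL/6 and BALB/c background and was tf1acre- and Tgfrb2flox/flox, as the labels spell it: negative for the Cre driver and with both copies of the gene written Tgfrb2 floxed. By its title the series sets cancer-associated against normal fibroblasts. A single library was analysed here, without a replicate or a second group, so the levels of genes within it are described and no test between conditions was possible. The value column carries a CAF code, the short form of cancer-associated fibroblast, while the sample is labelled normal fibroblast, and which of the names holds was not tested. It is referred to by its label.

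In the hedgehog pathway a secreted ligand binds Ptch1, a membrane protein that otherwise holds Smo inactive. Freed Smo moves into the primary cilium, a single antenna on the cell surface, and there alters the GLI factors. Gli2 acts mainly as an activator and Gli3 is largely cut to a repressor when no ligand is bound, while Gli1, Ptch1 and Hhip are themselves transcribed in response to the signal. In pancreas tumours the ligand is known to come mainly from epithelial cells and to act on the fibroblasts around them.

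The library held 52494688 reads, so that 1 read is 0.0190 reads per 1000000 reads (CPM), and intervals below are exact 95% Poisson or binomial intervals for counting error only. The 10 fibroblast markers had a median of 1413 CPM, with Col1a1 at 2785 CPM and Pdgfra at 366 CPM, while Lum, at 5.30 CPM, was near the coding median of 4.72 CPM. All 10 had at least 10 reads, as did all 10 epithelial markers. The medians of the other marker lists were 122 CPM for 6 mesothelial genes, 34.7 CPM for 10 acinar genes, 1.60 CPM for 10 epithelial genes, 0.600 CPM for 6 leukocyte genes, 0.248 CPM for 7 endothelial genes and 0.0857 CPM for 6 endocrine genes. In the endothelial list Kdr alone stood high, at 181 CPM, with Tek next at 0.972 CPM. Mesothelial markers (90.7 CPM for Msln to 218 CPM for Lrrn4) and acinar enzymes (up to 87.2 CPM for Cpb1) were thus present in a culture labelled as fibroblasts, although the acinar genes Ptf1a, Rbpjl and Amy2a5 had 0.114, 0.400 and 1.47 CPM. The part of such cells in the levels of the hedgehog genes was not tested. In bulk RNA, fewer cells of a type and less RNA per cell cannot be told apart.

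All 10 hedgehog genes had at least 10 reads, as did 67.6% of all protein-coding genes. At a minimum of 1 read the counts were 10 of 10 members and 90.9% of coding genes, and at 50 reads, which Shh and Hhip missed, 8 of 10 members and 57.7% of coding genes. By reads, Smo, the 3 co-receptors, Gli3, Gli2 and Ptch1 had between 21.3 and 130 CPM, while Gli1, Shh and Hhip had between 0.343 and 0.991 CPM. Per length, Ptch1 stood between the other 6 of the first set and the last 3, as given below. The members' median was 55.5 CPM, or 5.80 as log2(CPM + 0.5), against 2.39 for all protein-coding genes and 4.46 for those with at least 10 reads on the same log2 scale. Together the 10 genes took 0.0528% of the reads.

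**Figure D1:**
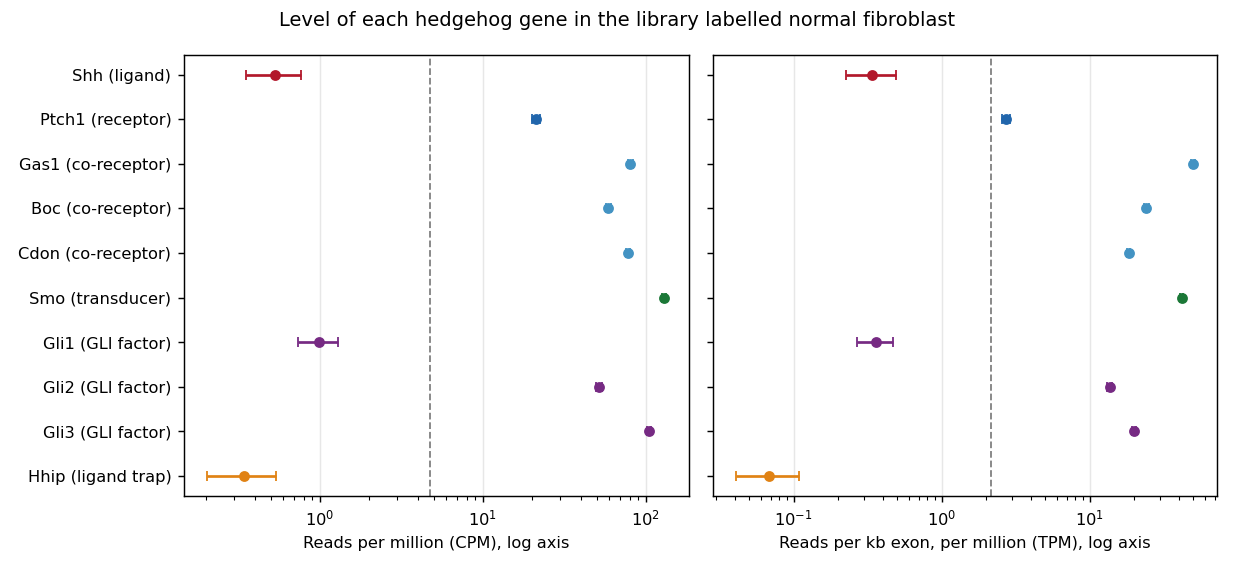
Level of each of the 10 genes in the 1 library, as CPM (left) and per exonic length as TPM (right), on log axes; points are the values, bars the exact 95% Poisson intervals and dashed lines the medians of all protein-coding genes. Shh, Gli1 and Hhip lie below the medians, and the other 7 genes lie above them on both scales.

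Levels were also divided by exonic length (reads per kilobase of annotated exon, scaled so that all genes with a length sum to 1000000; TPM), since only such values may be compared between genes. On this scale Gas1 stood at 49.5 TPM, Smo at 41.9, Boc at 24.1, Gli3 at 19.9, Cdon at 18.3, Gli2 at 13.7, Ptch1 at 2.73, Gli1 at 0.360, Shh at 0.340 and Hhip at 0.0685 TPM. The median protein-coding gene had 2.16 TPM, and 7 of the 10 members lay above it, against 50% of coding genes by definition. Among coding genes with at least 10 reads the median was 8.97 TPM or 21.5 CPM, and 6 of the 10 members lay above it on either scale, as did 33.9% of all coding genes per length and 33.8% by CPM. Ptch1 is the member that lay between these medians. Neighbours in this order, on the union of exons, had counting intervals that did not overlap, with the exception of Gli1 and Shh. The order of the first pair depended on the length used: with the longest annotated transcript in place of the union of exons, Smo came first at 1805 reads per kilobase and Gas1 next at 1432. Boc and Gli3 were close on that length, at 697 and 675 reads per kilobase.

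**Figure D2:**
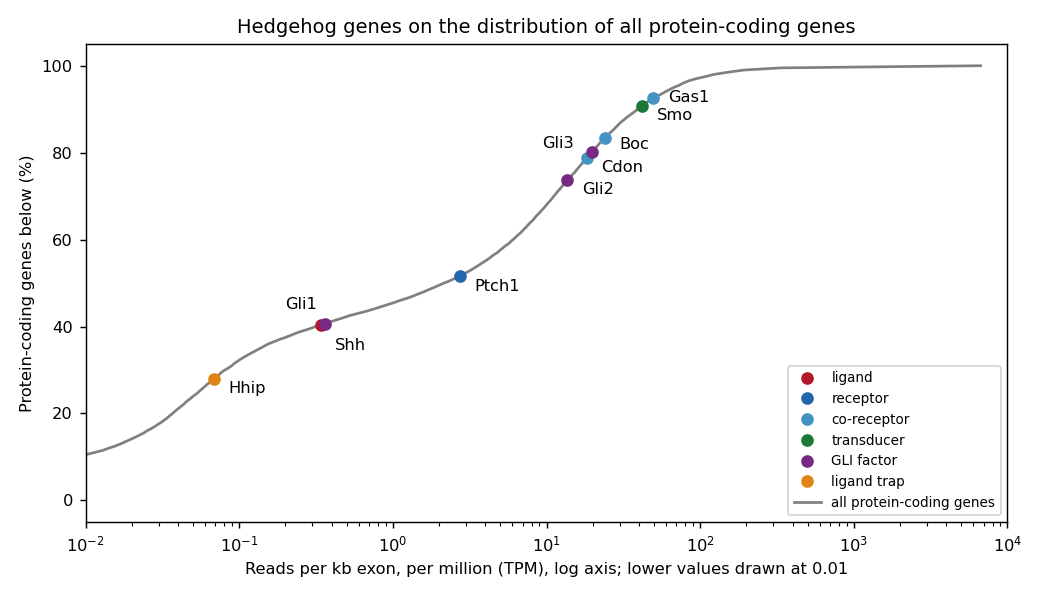
The 10 genes on the cumulative distribution of all protein-coding genes by level per length (x axis, TPM, log scale; y axis, percentage of coding genes with a lower value). Gas1 and Smo lie above 92.5% and 90.8% of coding genes, Ptch1 lies near the middle at 51.6%, and Hhip lies above 27.9%.

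The ligand gene was scarce. Shh, which encodes sonic hedgehog (GRCm38 chromosome 5, 28456815 to 28467256, minus strand), had 28 reads, which is 0.533 CPM (0.354 to 0.771) or 0.340 TPM, and was at rank 13121 of all genes. The related ligands were lower in reads: Ihh, the Indian hedgehog gene, had 12 reads and Dhh, the desert hedgehog gene, 6. Epithelial markers, whose cells are the usual source of Shh, were low as a list but not at 0: their levels were between 0.229 CPM for Cldn7 and 11.8 CPM for Krt18, and Epcam had 61 reads. The part of such cells in the Shh reads was not tested. Shh also shares 446 exonic bases with the antisense gene 9530036O11Rik, which has 3 reads in its own row. A further 361 bases are listed as shared with Gm26894, on the opposite strand, for which no read count was available. No source used here says whether strand was counted, so the Shh count is uncertain in that respect.

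Of the genes that make and release the ligand, 5 of 7 had at least 10 reads, near the 67.6% of all coding genes. The median coding gene per length was exceeded by 1 of the 7, against 50% of coding genes. Disp1, which releases the lipid-bearing ligand from the cell that makes it, had 157 CPM (153 to 160) and 54.4 TPM, a level per length, on the union of exons, above that of every member. Hhat, the acyltransferase that adds palmitate to the ligand, had 9.28 CPM and 1.84 TPM. The Scube genes, whose secreted products help to release the ligand, had 23 reads for Scube2, 17 for Scube1 and 9 for Scube3. Disp1 therefore stood apart from the ligands and from the other genes of this group in the library.

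The receptor gene Ptch1 (chromosome 13, 63508328 to 63573598, minus strand) had 1119 reads, or 21.3 CPM (20.1 to 22.6). Per length it had 2.73 TPM (2.57 to 2.89), above 51.6% of protein-coding genes, where its CPM was above 66.1% of them. The annotated exons of Ptch1 add up to 14185 bases over 10 transcripts, while the transcript that carries the deposited accession has 7725 bases, so its value per length is among those that rest most on the annotation. Lrp2, the large endocytic receptor called megalin, which binds Shh in the mouse forebrain, had 292 CPM (287 to 296) and 31.7 TPM. Of the glypicans, cell surface proteoglycans, Gpc3, whose product competes with Ptch1 for ligand, had 127 reads (2.42 CPM). Gpc5 had 0 reads, with a Poisson interval of 0 to 0.0703 CPM.

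The co-receptor genes were all well above the median coding gene. Their products bind the ligand at the cell surface and help to present it to Ptch1. Gas1, which encodes a lipid-anchored membrane protein (chromosome 13, 60174405 to 60177365, minus strand), had 4241 reads and 80.8 CPM (78.4 to 83.3). Cdon (chromosome 9, 35421128 to 35507652, plus strand), of the immunoglobulin superfamily, had 4081 reads and 77.7 CPM (75.4 to 80.2). Boc (chromosome 16, 44485049 to 44558897, minus strand), its close relative, had 3103 reads and 59.1 CPM (57.0 to 61.2). Per length Gas1 was 2.05 times as high as Boc (1.96 to 2.15) and 2.71 times as high as Cdon (2.59 to 2.83). It gave 53.9% of the summed level per length of the 3 co-receptors, Boc 26.2% and Cdon 19.9%. With the lengths of the transcripts that carry the deposited accessions, of which that of Gas1 has only 1155 bases, Gas1 was 5.27 times as high as Boc and 6.49 times as high as Cdon, and the shares were 74.4%, 14.1% and 11.5%. The order of Boc and Cdon turns with the scale, since Cdon has the more reads and the longer exons. Without division by length the ratio of Gas1 to Cdon was 1.04 (0.995 to 1.09), an interval that includes equal counts.

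Smo, which encodes the membrane protein smoothened (chromosome 6, 29735503 to 29761365, plus strand), was the member with the most reads: 6821, or 130 CPM (127 to 133), at rank 1606 of all genes. Per length it stood at 41.9 TPM, which is 15.4 times Ptch1 (14.4 to 16.4), and the ratio was 12.5 with the lengths of the transcripts that carry the deposited accessions and 6.10 without division by length. All 7 genes of the group that acts with Smo were detected at 10 reads, against 67.6% of coding genes. All 7 exceeded the median coding gene per length, against 50%. Above the median of detected coding genes lay 3 of the 7, beside 33.9% of all coding genes. Grk2, the kinase that phosphorylates active Smo, had 40.4 TPM. Evc2 and Evc, which form a complex with Smo near the base of the cilium, had 16.0 and 12.1 TPM. The beta-arrestin genes Arrb2 and Arrb1 had 7.12 and 6.63 TPM, and Efcab7 and Iqce, whose products anchor the Evc complex, had 5.25 and 2.45 TPM.

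The 3 GLI genes, which encode zinc finger transcription factors, differed widely. Gli3 (chromosome 13, 15463235 to 15730026, plus strand) had 5512 reads and 105 CPM (102 to 108), and Gli2 (chromosome 1, 118834132 to 119053619, minus strand) had 2721 reads and 51.8 CPM (49.9 to 53.8). Gli1 (chromosome 10, 127329882 to 127341974, minus strand) had 52 reads and 0.991 CPM (0.740 to 1.30). Per length, Gli3 was 1.45 times as high as Gli2 (1.39 to 1.52) and 55.2 times as high as Gli1 (42.0 to 74.0), and Gli2 was 38.1 times as high as Gli1 (28.9 to 51.1). Gli3 gave 58.6% of the summed level per length of the 3 genes, Gli2 40.4% and Gli1 1.06%. Gli1 overlaps the exons of Arhgap9, on the opposite strand, by 62 bases, and Arhgap9 had 12 reads in its own row. It also shares 265 exonic bases with the antisense gene Gm47200, for which no read count was available. The Gli1 count is therefore uncertain in the same respect as that of Shh. The same holds for Gas1, Gli3 and Hhip. They share 589 exonic bases with Gm48488, 188 with Gm6556 and 175 with Gm27820, in that order. Those genes lie on the opposite strand, and no read count was available for them. RNA levels do not show how much Gli3 protein is cut to its repressor form.

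**Figure D3:**
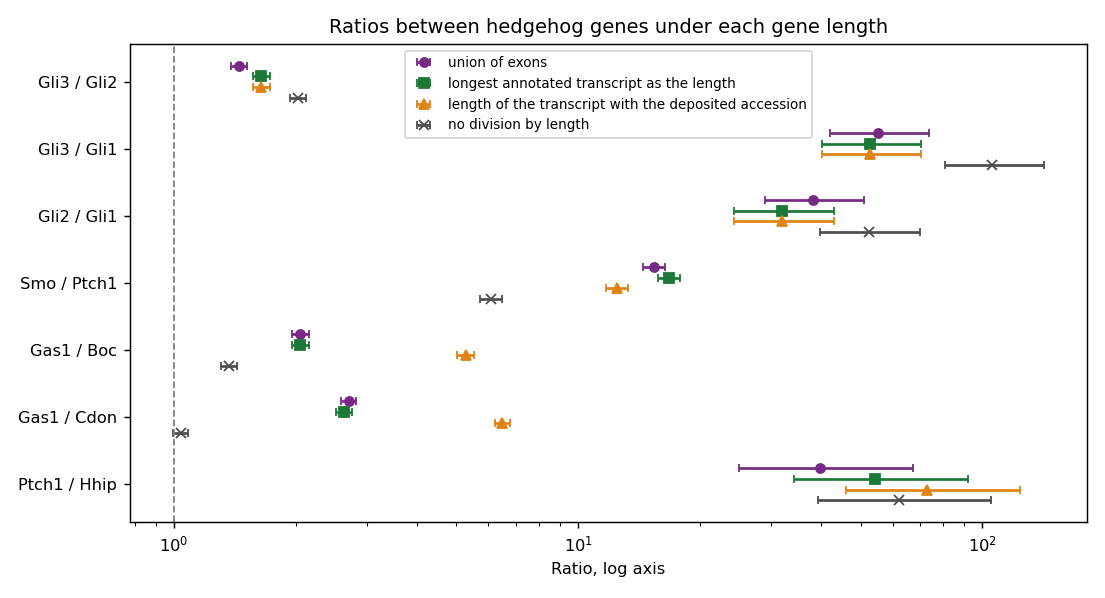
Ratios between pairs of hedgehog genes of related role (x axis, log scale) with exact binomial intervals of the split of reads, for 4 choices of gene length. Every ratio but that of Gas1 to Cdon without division by length keeps its interval above 1, and the ratios of Gas1 move most with the length.

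Because the GLI genes are paralogs, the sequence they share was searched for, to see whether reads could be counted for the wrong member. The longest identical runs between their transcripts, all inside coding sequence, are shown in capitals with 18 bases on either side, written in the direction of the transcript (GENCODE M21 transcripts, GRCm38).
Gli2 beside Gli3: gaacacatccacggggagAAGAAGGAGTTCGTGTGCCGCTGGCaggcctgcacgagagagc
Gli3 beside Gli2: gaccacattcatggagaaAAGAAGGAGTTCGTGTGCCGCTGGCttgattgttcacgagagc
Gli1 beside Gli2: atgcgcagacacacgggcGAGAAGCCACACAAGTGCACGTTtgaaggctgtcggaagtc
Gli2 beside Gli1: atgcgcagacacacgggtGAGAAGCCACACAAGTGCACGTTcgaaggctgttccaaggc
Gli1 beside Gli3: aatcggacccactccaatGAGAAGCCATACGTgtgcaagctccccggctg
Gli3 beside Gli1: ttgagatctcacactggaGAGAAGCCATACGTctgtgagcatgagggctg
The run was 25 bases between Gli2 and Gli3, 23 between Gli1 and Gli2 and 14 between Gli1 and Gli3. No stretch of 35 bases of the Gli2, Gli3, Ptch1, Boc or Cdon transcripts occurred in the annotated transcripts of any other gene, on either strand. For Gli1 6.49% of such stretches did, for Shh 25.1%, for Gas1 14.5% and for Hhip 1.56%, all in genes that overlap the member on the opposite strand. For Smo 3.90% did, in several genes that are not among those overlapping it, such as 1110008P14Rik and 1110032A03Rik. These shares refer to the transcript that carries the deposited accession, which for Gas1 has 1155 bases. Both searches were for exact identity only. The bases printed beside the run of Gli1 and Gli2 are also nearly the same, so with mismatches allowed the shared stretch is longer. Whether reads of Gli2 were counted for Gli1 was not tested. No source used here states the read length or the mismatches allowed.

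Hhip, which encodes a membrane protein that binds and sequesters the ligand (chromosome 8, 79965851 to 80058006, minus strand), was the lowest member. It had 18 reads, or 0.343 CPM (0.203 to 0.542), and 0.0685 TPM (0.0406 to 0.108). Ptch1 was 39.8 times as high per length (25.1 to 67.4), and the ratio was 54.3 with the longest transcripts, 62.2 without division by length and 73.0 with the transcripts of the deposited accessions. The textbook targets among the members thus did not share a level: per length Ptch1 had 2.73 TPM, while Gli1 and Hhip had 0.360 and 0.0685 TPM. Their reads were 1119, 52 and 18.

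To show the sequence at an annotated start of 2 such targets and of the abundant GLI genes, RefSeq promoter windows (GRCm38.p6) are given. They run from 250 bases before to 50 after that start, 5′ to 3′ on the gene's strand. Capitals mark the GC box GGGCGG and the CRE palindrome TGACGTCA, on either strand.
Ptch1, chr13:63565686-63565985, minus strand: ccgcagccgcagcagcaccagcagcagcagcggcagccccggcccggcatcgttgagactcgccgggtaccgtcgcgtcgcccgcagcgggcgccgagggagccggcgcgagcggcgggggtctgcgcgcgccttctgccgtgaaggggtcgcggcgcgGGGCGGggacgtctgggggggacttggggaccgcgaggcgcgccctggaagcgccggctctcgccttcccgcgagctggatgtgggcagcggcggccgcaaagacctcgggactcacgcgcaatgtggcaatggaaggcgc
Hhip, chr8:80057959-80058258, minus strand: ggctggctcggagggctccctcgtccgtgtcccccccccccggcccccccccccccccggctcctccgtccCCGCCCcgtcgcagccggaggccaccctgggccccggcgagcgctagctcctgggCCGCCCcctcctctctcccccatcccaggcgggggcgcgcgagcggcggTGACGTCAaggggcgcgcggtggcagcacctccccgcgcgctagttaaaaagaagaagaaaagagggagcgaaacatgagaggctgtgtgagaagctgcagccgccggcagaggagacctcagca
Gli2, chr1:119053570-119053869, minus strand: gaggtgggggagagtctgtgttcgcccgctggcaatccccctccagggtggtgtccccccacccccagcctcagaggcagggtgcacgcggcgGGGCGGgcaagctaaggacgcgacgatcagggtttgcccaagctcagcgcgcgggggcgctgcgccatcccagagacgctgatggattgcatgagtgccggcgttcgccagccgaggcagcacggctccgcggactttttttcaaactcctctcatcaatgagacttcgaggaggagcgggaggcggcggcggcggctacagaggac
Gli3, chr13:15463473-15463772, plus strand: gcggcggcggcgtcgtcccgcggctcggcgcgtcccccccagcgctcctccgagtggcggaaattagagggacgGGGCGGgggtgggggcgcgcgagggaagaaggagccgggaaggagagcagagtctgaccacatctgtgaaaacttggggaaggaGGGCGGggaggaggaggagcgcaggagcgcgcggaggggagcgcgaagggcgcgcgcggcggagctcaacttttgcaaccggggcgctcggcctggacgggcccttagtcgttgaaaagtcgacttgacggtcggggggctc
Windows were found for 7 members, not for Shh, Boc or Gli1. Those of Ptch1, Gli2 and Cdon lie at starts inside the gene and do not cover its outermost start. The window start of Ptch1 is 63565735 and its RefSeq gene begins at 63573460. For Gli2 these are 119053619 and 119054405, and for Cdon, on the plus strand, 35452076 and 35421528. The consensus bound by GLI factors, GACCACCCA or TGGGTGGTC on the other strand, occurred in none of the 7 windows, nor did a word that differs from it at 1 position. Among all 32851 RefSeq windows, 0.253% held the exact word and 6.74% a word within 1 mismatch. The GC box was in 5 of the 7 member windows, against 35.7% of all windows. The CRE palindrome was in the Hhip window alone, against 1.79% of all windows, and CCAAT in those of Cdon and Gas1, against 37.4%. The G and C content was 76.3% for Ptch1, 73.7% for Hhip, 71.0% for Gli3, 67.7% for Smo, 67.3% for Gli2, 62.3% for Gas1 and 44.7% for Cdon, with a median of 52.7% over all windows. A match or its lack describes these windows and says nothing of binding.

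All 17 genes of the group that restrains or processes the GLI proteins had at least 10 reads, against 67.6% of coding genes. All 17 exceeded the median coding gene per length, against 50%, with a group median of 19.6 TPM. Above the median of detected coding genes lay 11 of the 17, beside 33.9% of all coding genes. Protein kinase A primes the GLI proteins for cutting, and its subunit genes Prkar1a and Prkaca led at 159 and 84.1 TPM. Spop, an adaptor that marks GLI proteins for degradation, had 62.0 TPM, and Fbxw11, an F-box gene of GLI processing, had 57.6 TPM. Its relative Btrc had 4.26 TPM, Gpr161, a ciliary receptor that keeps protein kinase A active, 3.69 TPM, and the kinase gene Stk36 2.35 TPM. Sufu, the direct inhibitor of GLI proteins, had 24.4 CPM and 5.75 TPM, and Kif7, the kinesin at the tip of the cilium, had 14.3 CPM and 5.66 TPM.

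Cilium genes were detected throughout. Of 38 genes for building or entering the primary cilium, all had at least 10 reads, against 67.6% of coding genes. The median coding gene per length was exceeded by 31, against 50% of coding genes. The median of detected coding genes was exceeded by 13 of the 38, close to the 33.9% of all coding genes. The group's median was 7.32 TPM, below the 16.0 TPM of the 10 hedgehog genes. Kifap3 and Kif3b, subunits of the motor that carries cargo to the cilium tip, had 32.2 and 22.7 TPM, and the intraflagellar transport gene Ift52 had 16.0 TPM. The lowest were Fuz (1.57 TPM), Intu (1.40 TPM) and Bbs4 (1.28 TPM).

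**Figure D4:**
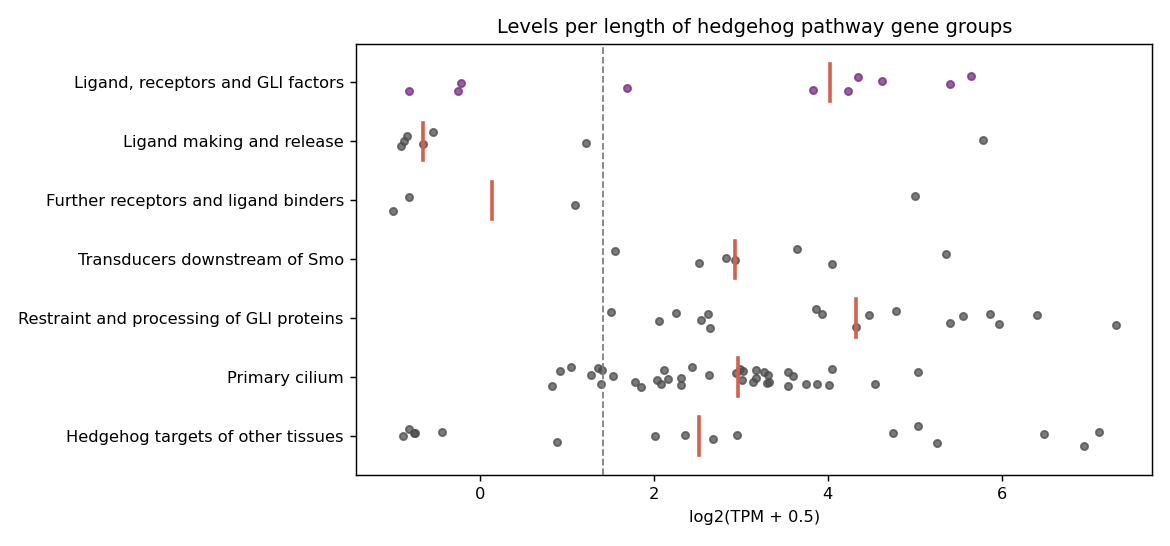
Level per length, log2(TPM + 0.5), of the 10 hedgehog genes and of 6 further groups of pathway genes; each point is a gene, red bars are group medians and the dashed line is the median of all protein-coding genes. The ligand-making group and the further receptors have medians below the line, and the other groups above it.

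Genes known as hedgehog targets in other tissues were split. Of 16, 13 had at least 10 reads, against 67.6% of coding genes, and 10 exceeded the median coding gene per length, against 50%. Above the median of detected coding genes lay 6 of the 16, near the 33.9% of all coding genes. The cyclin genes Ccnd1 and Ccnd2 had 139 and 122 TPM, Rab34, a GTPase gene of cilium formation, 88.7 TPM and Snai1, a transcription factor gene of mesenchymal cells, 37.7 TPM. Foxf1, a transcription factor gene of gut mesenchyme, had 43.0 CPM (41.3 to 44.8) and 32.3 TPM, while Hsd11b2 had 5 reads and the neural tube gene Nkx6-1 4. Many of these genes answer to other signals as well. Over all 6 groups, 82 of 88 genes had at least 10 reads, against 67.6% of coding genes. The median coding gene per length was exceeded by 67 of them, against 50%. Against the median of detected coding genes the count was 35 of 88, beside 33.9% of all coding genes.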

How the data were processed

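RNA from 1 mouse pancreas fibroblast culture was measured. The deposited signal was found from its values to be a normalised count per gene: 99.99% of the values above 0 (20973 of 20976) were whole multiples of 1.18 within 0.006, so read counts had been divided by a size factor of 0.850, and the whole reads were recovered. The search was checked on simulated libraries. The submitters' processing notes name DESeq and mm10, without roles. No source used here gives the aligner, counting tool, strand setting or read length. A count test such as edgeR needs replicates and was not run, so no gene was called changed.

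Accessions of 98.4% of 24214 rows matched RefSeq (GRCm38.p6), and rows of the same gene were summed. An NM accession marked a gene as coding, and 10 reads as detected. Lengths and coordinates come from GENCODE M21 (GRCm38, the assembly of mm10), lengths being unions of exons, found for 99.2% of coding genes. The pseudocount was 0.5. Members and lists were chosen with earlier results of these data known. Named are all members, every gene of short lists and the 4 highest and 3 lowest per length of longer ones, plus genes tied to a member's role (Sufu, Kif7, Foxf1); some items that fall under it are left unnamed but are included in counts, and the marker genes named were chosen after their values were seen, as were the motifs other than the GLI consensus. Likeness of pattern is not defined over 1 library. The tools were scipy 1.17.1, pandas 2.3.3 and numpy 2.4.6 under Python 3.11.15, with figures by matplotlib 3.10.9.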

Additional observations from a re-analysis of the deposited data

How the results depend on the processing

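No paired analysis was possible because there is only 1 library, and leaving out a replicate was not possible either. Of the 88 other pathway genes, 87 had at least 1 read and 77 at least 50, against 90.9% and 57.7% of coding genes. Above the median of coding genes by CPM lay 72 of the 88, against 50% of coding genes. When only coding genes with at least 10 reads set the median, 45 lay above it, against 33.8% of all coding genes. The members' median of 5.80 on the log2 scale was 5.92 with a pseudocount of 5, 6.22 with the 100 most abundant genes left out of the total, 5.92 with a total of coding genes and 4.03 per length; the median of coding genes was 3.28, 2.77, 2.50 and 1.41 in the same order. No ratio turned below 1. Without division by length the ratios were 2.03 for Gli3 to Gli2, 106 for Gli3 to Gli1, 52.3 for Gli2 to Gli1, 6.10 for Smo to Ptch1, 1.37 for Gas1 to Boc and 1.04 for Gas1 to Cdon. With the longest transcript, Gli3 to Gli2 was 1.65 and Smo to Ptch1 16.7. With the transcript of the deposited accession, a setting chosen after seeing the data, the ratios were 1.65 for Gli3 to Gli2, 12.5 for Smo to Ptch1, 5.27 for Gas1 to Boc, 6.49 for Gas1 to Cdon and 73.0 for Ptch1 to Hhip; for Gas1 that transcript has 1155 bases, against 2961 for the union of exons. Depth limits Shh, Gli1 and Hhip most, whose intervals are the widest for their size.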
